A study of Mus musculus with 12 samples.

Results

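The 10 genes of the Wnt pathway described here were followed in 3T3-L1 preadipocytes at the start of adipogenesis, in RNA from polysomes and in RNA from lighter gradient fractions. They are the ligands Wnt10b, Wnt6, Wnt5a and Wnt5b, the receptor Fzd1, the secreted inhibitors Sfrp1 and Sfrp2, the intracellular inhibitor Dact1, the scaffold Axin2 and the effector Ctnnb1. A probe belonged to the set when the transcript accession given for it on the array was one of these genes. This rule found 13 probes of all 10 genes, out of 41174 probes, of which 26690 could be paired with one of 18217 gene symbols.

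3T3-L1 is a clonal mouse embryonic fibroblast line that turns into fat-storing cells when a hormone mixture is given after the culture has become confluent. The 12 samples were 3 biological replicates of each of 4 groups. Untreated confluent cells at 0 h gave a non-polysomal pool of RNA (np0) and a polysomal pool (p0). Cells collected 6 h after the addition of 0.5 mM isobutylmethylxanthine, 1 µM dexamethasone and 5 µg/ml insulin gave the pools np6 and p6. Growth medium held newborn bovine serum and the differentiation medium fetal bovine serum, so hormones and serum changed together and their effects cannot be told apart. The lysates of all groups contained cycloheximide and were run on sucrose gradients, and gradient fractions 5 to 7 made the non-polysomal pool and fractions 9 to 11 the polysomal pool. Each pool was hybridised to a one-colour Agilent array, so that a value is a concentration in labelled RNA of that pool, and the total amount of a transcript in the cell was not measured.

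Wnt ligands bind Frizzled receptors on the cell surface. In the canonical branch this stops the destruction complex, which holds Axin, APC, casein kinase and GSK3, from marking β-catenin for degradation, and β-catenin then drives transcription with TCF/LEF factors. The branch is known for holding preadipocytes undifferentiated: Wnt10b and Wnt6 are ligands that restrain adipogenesis, and Wnt5a and Wnt5b act mostly through branches that do not need β-catenin. Secreted Frizzled-related proteins bind Wnt ligands outside the cell, and Dact1 binds Dishevelled inside it.

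Values are log2 signals after subtraction of background and after each array was set to 10 spike-in transcripts of the array kit. A probe was called higher or lower when the limma test, adjusted by Benjamini-Hochberg over all probes, gave a p under 0.05. On the p6 arrays the spike-ins lay below those of the other arrays (mean offset -0.35 ± 0.14, SD, n = 3, against 0.10 to 0.14 in the other groups), so spike-in scaling raised all p6 values and by itself added 0.50 to every M-value. The spike-ins did not move together on these arrays, since the 5 dimmer ones were on average 0.83 lower on the log2 scale than on the other arrays and the 5 brighter ones 0.09 lower. The median of all probes was 0.54 for the change in the polysomal fraction, 0.04 for that in the non-polysomal fraction and 0.49 for the M-value, and values relative to this median are given below for the small changes. Genes of the hormone response (6 genes such as Fkbp5 and Cebpb) were above background on all arrays, and all 9 of their probes were higher at 6 h in the polysomal fraction. All 8 fibroblast marker genes were above background on all arrays, as were 4 of 6 markers of mature adipocytes, and none of the 6 markers of other cell types on the array was. Of the latter, 1 endothelial probe, A_52_P248604 of Cdh5, was well above background on the 3 p6 arrays and no others (mean log2 signal 4.67, adjusted p = 3.1e-07 against p0), while its other probe was so on 2 arrays and Pecam1 on 0, and its part in the results was not tested.

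Of the 10 genes, 7 (9 of 13 probes) exceeded background clearly on all 3 arrays of 1 group or more, and 6 probes did so on all 12 arrays. Over 6 h, Dact1 and Wnt5a rose and Wnt6 fell in both fractions. In polysomes each of these changes exceeded the spread between replicates. The non-polysomal rise of Dact1 (2.15) did not, since its np0 arrays ranged from 2.46 to 5.14. Fzd1 rose by less than 2-fold in both fractions. Sfrp2 rose in the polysomal fraction and fell by 0.34 in the non-polysomal one. The polysomal rises of Fzd1 and Sfrp2 turned under quantile normalization. Sfrp2 was the only member above background whose M-value passed the test in the main fit. Of all probes above background in a group, 47.1% had a higher M-value there. With the authors' log2 values Dact1 and Wnt5a passed as well. Ctnnb1 stood at 7.57- to 9.90-fold higher signal in polysomes at both times, a ratio whose size, not its direction, depended on the scaling. Wnt10b, Axin2 and Sfrp1 were at background throughout. In RNA of a whole culture, fewer cells with a transcript and less of it per cell cannot be told apart.

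In the polysomal fraction 10 of the 13 probes were called higher at 6 h, where 50.7% of all probes were, and 2 were called lower, where 11.7% were. Of those 10, 3 were probes never above background. In the non-polysomal fraction 3 probes were called higher against 20.6% of all probes, and 2 lower against 19.6%. The median over the 13 probes was 0.56 in polysomes and 0.06 in the non-polysomal pool, beside 0.54 and 0.04 over all probes. The 13 probes as a list thus lay close to all probes in both fractions.

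**Figure D1:**
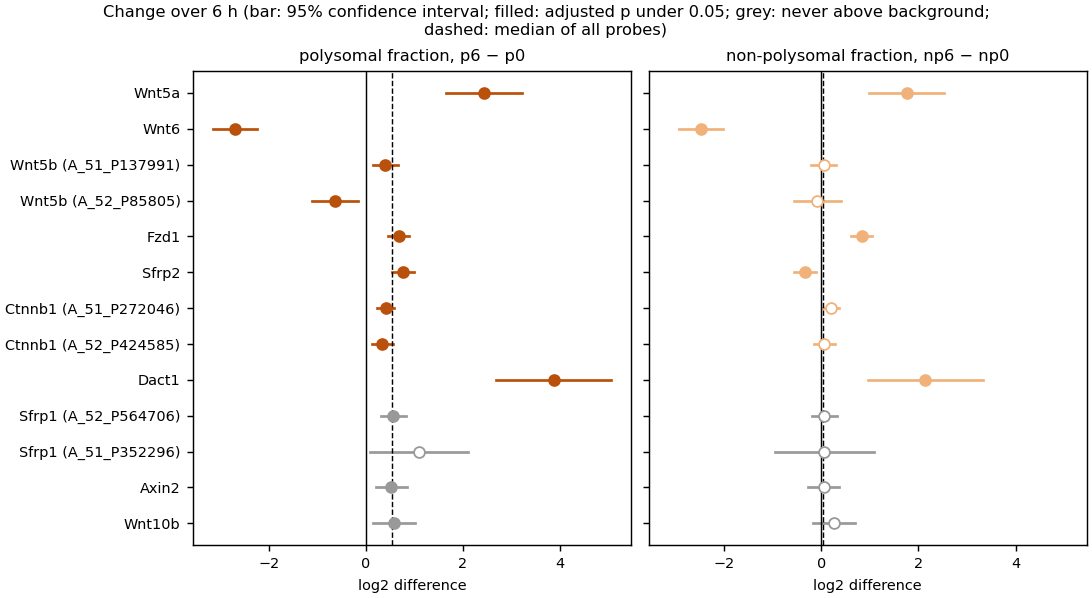
Log2 change over 6 h of the 13 probes in the polysomal fraction (left, p6 minus p0) and the non-polysomal fraction (right, np6 minus np0), with 95% confidence intervals from the limma fit, 3 arrays a group. Dact1 (3.87 and 2.15) and Wnt5a (2.43 and 1.76) lie far to the right and Wnt6 (-2.69 and -2.47) far to the left in both panels, while most other probes lie near the dashed median of all probes.

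Dact1 showed the largest rise of the members. Its log2 signal was 2.46, 5.14 and 3.25 in np0, 4.64, 4.87 and 4.36 in p0, 5.88, 5.74 and 5.67 in np6, and 8.57, 8.42 and 8.48 in p6. The p6 arrays lay above all others and the np6 arrays above all 0 h arrays, while np0 and p0 overlapped and 1 of the 3 np0 arrays was not well above background. In the polysomal fraction Dact1 rose by 3.87 on the log2 scale (SE 0.53, 14.6-fold, limma adjusted p = 0.00013), and within the 3 slides, each of which held 1 array of every group, the rise was 3.93, 3.55 and 4.12. In the non-polysomal fraction it rose by 2.15 (SE 0.53, 4.42-fold, adjusted p = 0.0078), with 3.42, 0.59 and 2.42 within slides. That call was lost when slide 1 (1.51, adjusted p = 0.12) or slide 3 (2.01, adjusted p = 0.12) was left out, which leaves 2 arrays a group. At 6 h its polysomal signal was 6.63-fold above the non-polysomal one (adjusted p = 0.0011), and at 0 h the difference of 1.01 did not pass the test (adjusted p = 0.15).

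The 250 bases before the annotated start of Dact1 are shown because it had the largest change and codes for an inhibitor of the pathway. They and the other genomic sequences below are RefSeq's, build GRCm38.p6, read 5′ to 3′ on the gene's strand. Capitals mark matches, on either strand, to the half-site TGACG of the cAMP response element, to the glucocorticoid receptor core ACANNNTGT or to the TCF/LEF cores CTTTGA and CTTTGT. The half-site is contained in the full cAMP response element TGACGTCA.
Dact1, chr12:71309634-71309883, plus strand: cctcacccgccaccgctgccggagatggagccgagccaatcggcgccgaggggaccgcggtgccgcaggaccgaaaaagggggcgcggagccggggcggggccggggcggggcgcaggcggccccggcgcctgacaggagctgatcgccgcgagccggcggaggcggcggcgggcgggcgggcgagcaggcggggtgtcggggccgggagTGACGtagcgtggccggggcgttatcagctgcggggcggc
The window of 300 bases, 250 before and 50 after the start, held 1 half-site and none of the other motifs. Of all 32851 promoters in the table, 20.8% held a half-site, 1.8% the full element, 6.8% the glucocorticoid receptor core and 31.2% a TCF/LEF core, so a half-site is a common match. The table held 11 promoters of 8 members, 3 of them with a half-site, 2 with a TCF/LEF core, 1 with the glucocorticoid receptor core and 0 with the full element.

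Wnt5a, a ligand of the branches that do not need β-catenin, rose as well. Its log2 signal was 1.86, 2.91 and 3.52 in np0, 4.68, 4.83 and 4.61 in p0, 4.37, 4.30 and 4.90 in np6, and 7.23, 6.99 and 7.19 in p6. The p6 arrays stood above all others and the np0 arrays below all others, p0 and np6 overlapped, and only 1 of the 3 np0 arrays was well above background. Wnt5a rose by 2.43 in the polysomal fraction (SE 0.35, 5.39-fold, limma adjusted p = 0.00017), with 2.55, 2.17 and 2.58 within slides. In the non-polysomal fraction it rose by 1.76 (SE 0.35, 3.38-fold, adjusted p = 0.002), with 2.51, 1.39 and 1.38 within slides. Its polysomal signal was 3.85-fold above the non-polysomal one at 0 h (adjusted p = 0.00065) and 6.13-fold at 6 h (adjusted p = 6.5e-05). The values against np0 rest on a group with 1 of its arrays above background, and with the authors' log2 values the non-polysomal rise was 0.54 and the difference at 0 h 0.62.

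Wnt6, one of the ligands that restrain adipogenesis, went the other way. Its log2 signal was 5.53, 5.56 and 5.57 in np0, 6.50, 6.92 and 6.86 in p0, 3.06, 2.77 and 3.41 in np6, and 3.69, 4.15 and 4.38 in p6. All 6 arrays at 6 h lay below all 6 at 0 h. None of the np6 arrays and 2 of the 3 p6 arrays were well above background. In the polysomal fraction Wnt6 fell by 2.69 (SE 0.20, limma adjusted p = 1.5e-06), which is 6.45-fold lower. In the non-polysomal fraction it was at least 5.40-fold lower at 6 h (adjusted p = 4.4e-06), a bound under spike-in scaling. The bound took np6 at 3.12, near its measured mean of 3.08, and so lay close to the measured log2 change of -2.47. Across the other settings, described below, the measured log2 change ranged from -2.67 to -0.62. Within slides the polysomal change was -2.81, -2.77 and -2.48. The polysomal signal was 2.31-fold above the non-polysomal one at 0 h (adjusted p = 0.00043) and at least 1.94-fold above it at 6 h (adjusted p = 0.0016). The 6 h bound took np6 at the same 3.12 and lay close to the measured 1.99-fold. With each array scaled to its 75th percentile the difference between fractions lost the test at 0 h (0.30, adjusted p = 0.16) and turned at 6 h (-0.34, adjusted p = 0.12).

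The bases before the start of Wnt6, the ligand that fell, are printed in the same way for comparison with Dact1. They hold no capitals, since none of the motifs matched.
Wnt6, chr1:74771642-74771891, plus strand: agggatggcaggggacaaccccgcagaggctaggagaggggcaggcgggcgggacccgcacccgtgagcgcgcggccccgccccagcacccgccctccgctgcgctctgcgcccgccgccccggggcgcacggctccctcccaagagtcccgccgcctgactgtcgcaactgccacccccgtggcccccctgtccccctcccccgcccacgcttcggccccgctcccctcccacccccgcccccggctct

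Wnt5b was measured by a pair of probes that disagreed, so no single direction is given for the gene. The probe A_51_P137991 read 4.28, 4.43 and 4.34 in np0, 5.38, 5.44 and 5.28 in p0, 4.66, 4.25 and 4.29 in np6, and 5.74, 5.86 and 5.70 in p6. Its 3 p6 arrays lay above its p0 arrays and the change passed the test (0.40, SE 0.11, limma adjusted p = 0.011), but it was 0.14 under the median of all probes and turned to -0.07 with 75th percentile scaling. The probe A_52_P85805 read 6.36, 6.25 and 6.17 in np0, 7.10, 6.62 and 6.23 in p0, 6.52, 5.89 and 6.13 in np6, and 6.03, 5.92 and 6.08 in p6. Here the p6 arrays lay below the p0 arrays (-0.64, SE 0.21, adjusted p = 0.025), and the call was lost without p0 replicate 1 (-0.42), p6 replicate 1 (-0.65), p6 replicate 2 (-0.59), slide 1 (-0.43) or slide 2 (-0.61). The first probe was 2.02-fold higher in polysomes at 0 h (adjusted p = 1.6e-05) and 2.58-fold at 6 h (adjusted p = 1.3e-06), but both calls were lost with 75th percentile scaling (0.11 and 0.03 on the log2 scale, adjusted p = 0.37 and 0.78). The second gave 0.39 (adjusted p = 0.17) and -0.17 (adjusted p = 0.49).

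Wnt10b, the ligand best known for blocking adipogenesis, was not well above background on any of the 12 arrays, nor were Axin2, a scaffold of the destruction complex and a target of β-catenin, and both probes of Sfrp1. Before scaling, the log2 signals of these 4 probes lay between 0.66 and 2.83. After spike-in scaling they lay between 0.50 and 1.63 on all arrays except p6 and between 1.15 and 3.18 on p6. Wnt10b, Axin2 and 1 Sfrp1 probe were called higher in p6 than in p0 (0.58, 0.52 and 0.56), close to the median of 0.54 of all probes. No fold is given for them, because both groups were at background, and with 75th percentile scaling these differences were 0.10, 0.05 and 0.09, none of which passed the test.

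**Figure D2:**
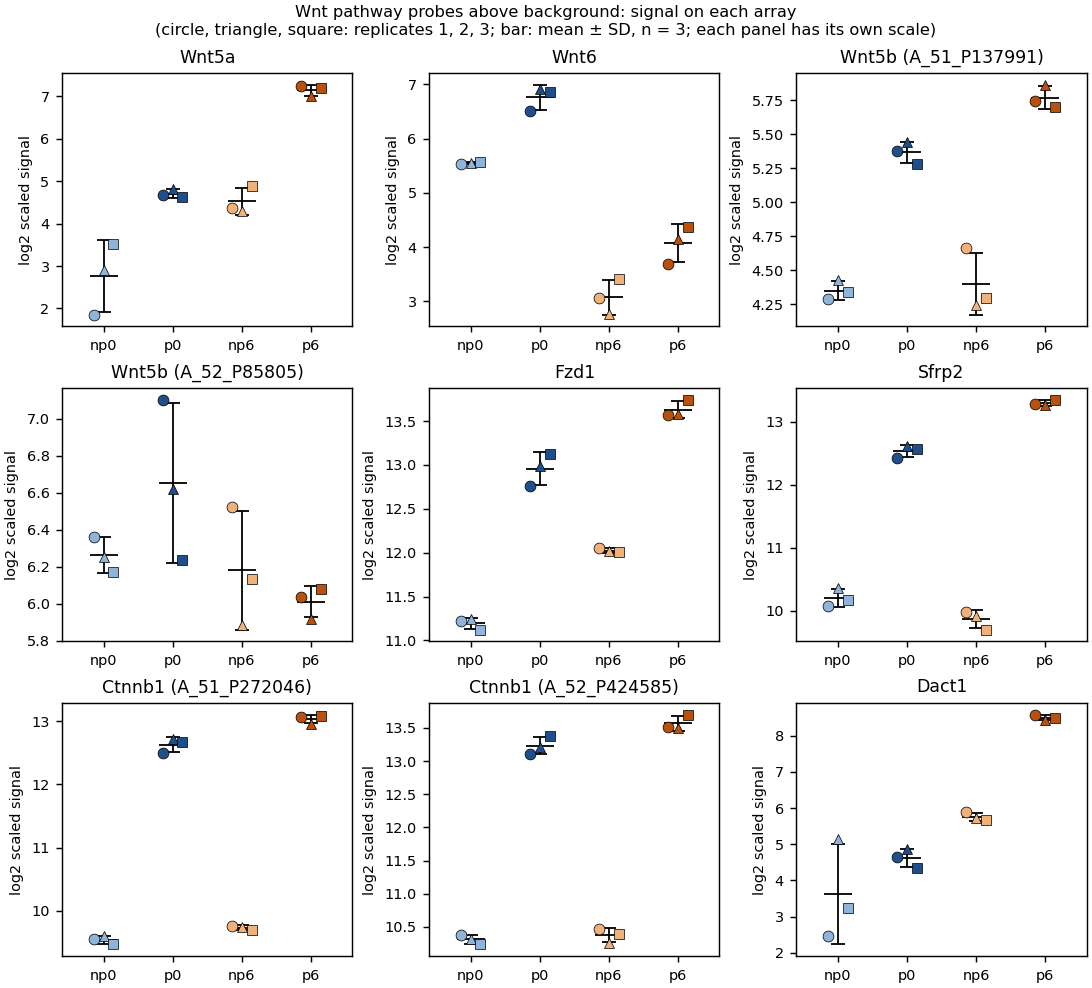
Scaled log2 signal of the 9 probes above background on each of the 12 arrays, with the 4 groups on the x axis, a symbol per replicate, and the mean and SD of 3 arrays. For Dact1 and Wnt5a the p6 arrays (8.42 to 8.57 and 6.99 to 7.23) stand above all others, for Wnt6 all arrays at 6 h stand below those at 0 h, and for Ctnnb1, Fzd1 and Sfrp2 both polysomal groups stand above both non-polysomal groups.

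Fzd1, a Frizzled receptor, rose in both pools. Its log2 signal was 11.22, 11.24 and 11.12 in np0, 12.76, 12.99 and 13.13 in p0, 12.05, 12.02 and 12.00 in np6, and 13.57, 13.58 and 13.74 in p6. None of the 4 groups overlapped. The non-polysomal rise was 0.83 (SE 0.10, 1.78-fold, limma adjusted p = 6.1e-05), with 0.84, 0.78 and 0.88 within slides, and 0.79 relative to the median of all probes. The polysomal rise was 0.67 (SE 0.10, 1.59-fold, adjusted p = 0.00021) but only 0.13 relative to that median, and under quantile normalization, which gives all arrays the same distribution, it turned to -0.26 (adjusted p = 0.0082). The polysomal signal was 3.40-fold above the non-polysomal one at 0 h (adjusted p = 7.2e-08) and 3.04-fold at 6 h (adjusted p = 1.2e-07). The 6 h difference of 1.61 on the log2 scale was 0.27 with 75th percentile scaling and 0.26 after quantile normalization, and that of 1.77 at 0 h was 0.86 and 1.12. The promoter of Fzd1 was one of the 2 that held TCF/LEF cores and is shown for that reason.
Fzd1, chr5:4758217-4758466, minus strand: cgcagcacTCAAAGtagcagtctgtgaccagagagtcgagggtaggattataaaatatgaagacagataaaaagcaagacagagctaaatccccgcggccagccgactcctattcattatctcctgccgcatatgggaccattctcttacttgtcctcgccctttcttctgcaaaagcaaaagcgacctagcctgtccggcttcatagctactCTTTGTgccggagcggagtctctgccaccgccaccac
One match starts 242 bases before the annotated start and the other 37 bases before it.

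Sfrp2, a secreted inhibitor that binds Wnt ligands, changed its distribution between the pools. Its log2 signal was 10.08, 10.35 and 10.18 in np0, 12.43, 12.62 and 12.56 in p0, 9.98, 9.91 and 9.70 in np6, and 13.28, 13.27 and 13.35 in p6. The p6 arrays lay above the p0 arrays, and the np6 arrays lay below the np0 arrays. The polysomal rise was 0.76 (SE 0.10, 1.69-fold, limma adjusted p = 1e-04), 0.22 above the median of all probes, and was -0.13 (adjusted p = 0.2) under quantile normalization. The non-polysomal fall was 0.34 (SE 0.10, 1.26-fold lower, adjusted p = 0.021), and lost the test without np0 replicate 2 (-0.26), np6 replicate 3 (-0.26), slide 2 (-0.29) or slide 3 (-0.27). Its polysomal signal was 5.04-fold above the non-polysomal one at 0 h (adjusted p = 1.2e-08) and 10.8-fold at 6 h (adjusted p = 6.5e-10). On the log2 scale these differences of 2.33 and 3.43 were 1.42 and 2.10 with 75th percentile scaling and 1.64 and 1.96 after quantile normalization.

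Ctnnb1 codes for β-catenin, the effector of the canonical branch. The probe A_51_P272046, printed 10 times on each array, read 9.55, 9.60 and 9.46 in np0, 12.50, 12.71 and 12.67 in p0, 9.76, 9.74 and 9.69 in np6, and 13.06, 12.96 and 13.09 in p6. The probe A_52_P424585 read 10.38, 10.32 and 10.24 in np0, 13.11, 13.22 and 13.37 in p0, 10.47, 10.26 and 10.40 in np6, and 13.52, 13.49 and 13.70 in p6. On both probes every polysomal array lay far above every non-polysomal array. The polysomal signal was 8.54- and 7.57-fold above the non-polysomal one at 0 h (limma adjusted p = 1.4e-09 and 2.7e-09), and these differences were larger than those of 99.0% and 98.2% of the 20366 probes above background on all arrays. At 6 h the ratio was 9.90- and 9.14-fold (adjusted p = 3.3e-10 and 7.2e-10), larger than that of 96.6% and 95.2% of those probes. On the log2 scale the differences of 3.09 and 2.92 at 0 h and 3.31 and 3.19 at 6 h were 2.18 and 2.01 and then 1.97 and 1.86 with 75th percentile scaling. Over 6 h the polysomal signal rose by 0.41 and 0.34 (SE 0.08 and 0.10, adjusted p = 0.0014 and 0.012), which was 0.13 and 0.20 under the median of all probes, and the direction turned with 75th percentile scaling (-0.07 and -0.14) and quantile normalization (-0.48 and -0.63). The call of the second probe was also lost when any 1 of the 3 slides was left out (0.30, 0.37 and 0.34). In the non-polysomal fraction neither change passed the test (0.19 and 0.06, adjusted p = 0.079 and 0.7).

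Comparing the pools at 0 h, 7 of the 13 probes were called higher in the polysomal one, against 37% of all probes, and 0 were called lower, against 15%. At 6 h 10 were called higher, against 59.9%, and 0 lower, against 9.99%, and 2 of the 10 were never above background. The median over the 13 probes was 1.02 at 0 h and 1.37 at 6 h, beside 0.15 and 0.68 over all probes. Among the 25025 probes above background in a group the medians were 0.76 and 1.21 and 58.6% and 70.3% were called higher. With 75th percentile scaling 5 probes were higher and 3 lower at 0 h, and 6 higher and 4 lower at 6 h. The 3 lower at 0 h were those of Wnt10b and Axin2 and 1 of Sfrp1, all never above background. The same 3 were lower at 6 h, together with the Wnt5b probe A_52_P85805.

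**Figure D3:**
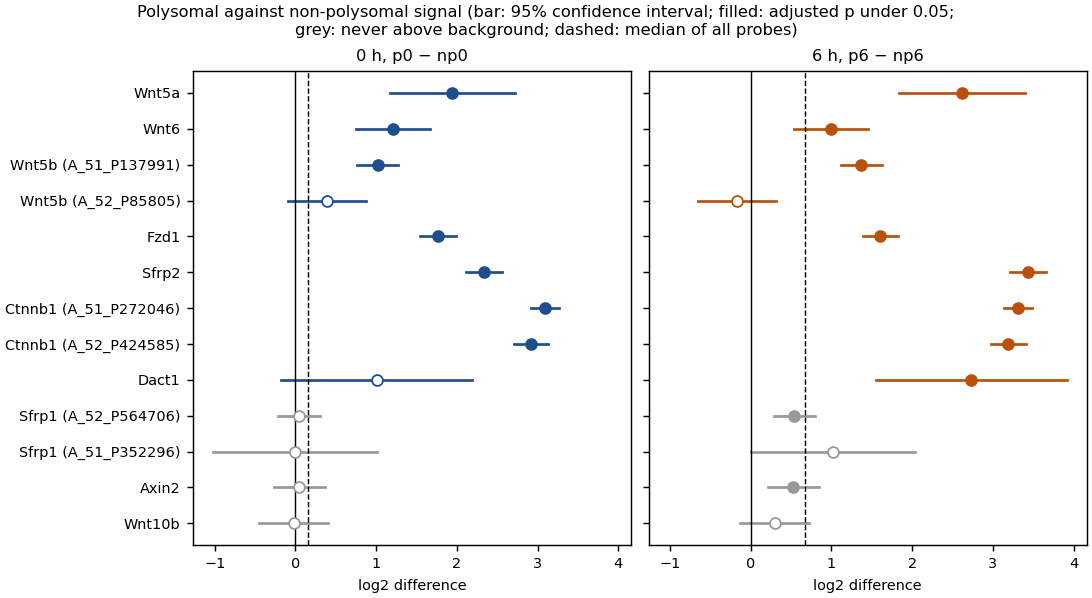
Log2 difference between the polysomal and the non-polysomal pool at 0 h (left) and 6 h (right) for the 13 probes, with 95% confidence intervals from the limma fit, 3 arrays a group. Both Ctnnb1 probes (3.09 and 2.92 at 0 h) and Sfrp2 (2.33 at 0 h, 3.43 at 6 h) lie farthest from 0, and the 4 probes never above background lie near 0 at 0 h.

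The first bases of Sfrp2 and Ctnnb1, the members with the largest ratio of polysomal to non-polysomal signal, are shown because a start of C followed by pyrimidines marks transcripts whose translation follows growth signals. Capitals would mark the run of pyrimidines from the annotated start, and the pair of Ctnnb1 starts are named in genomic order.
Sfrp2: gctcactctgctcccccggg
Ctnnb1, first start: gcgcggcggaacgctccgcg
Ctnnb1, second start: Cgtcagtgcaggaggccgag
A start of C with a run of 5 or more pyrimidines was found at 2.5% of all promoters in the table and at 0 of the 11 promoters of the members.

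The M-value, (p6 - np6) - (p0 - np0), asks whether the balance between the pools changed over 6 h. It was called higher for 2 of 13 probes, where 32% of all probes were, and lower for 0, where 4.01% were. The first of these was an Sfrp1 probe never above background (0.50), a value equal to the shift of 0.50 that spike-in scaling gave every probe. The second was Sfrp2, with an M-value of 1.10 (SE 0.14, 95% confidence interval 0.78 to 1.42, 2.14-fold, limma adjusted p = 0.00027) and 0.95, 1.09 and 1.26 within slides. It was 0.61 relative to the median of all probes. Sfrp2 passed the test with 75th percentile scaling (0.67, adjusted p = 0.00089) and after quantile normalization (0.33, adjusted p = 0.044), and in all 24 alternatives its M-value stayed above 0 and past the test.

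The M-values of Dact1 (1.72, SE 0.75, 95% confidence interval 0.05 to 3.40, limma adjusted p = 0.097) and Wnt5a (0.67, SE 0.49, -0.43 to 1.77, adjusted p = 0.29) did not pass the test. The np0 arrays of both genes, partly at background, spread by 1.38 and 0.84 (SD). Without np0 replicate 1 the values were 2.30 (adjusted p = 0.016) and 1.13 (adjusted p = 0.017), and without np0 replicate 2 that of Dact1 was 0.96 (adjusted p = 0.04). Both M-values also passed the test with the authors' log2 values (2.03 and 1.21), the added normexp fit (1.80 and 1.09) and a line fitted to the spike-ins (adjusted p = 0.015 and 0.028). For Wnt6 the M-value was -0.22 (-0.86 to 0.43, adjusted p = 0.57). It rests on np6 arrays of which none was well above background, so the falls in the pools cannot be compared in size. For Fzd1 it was -0.16 (-0.47 to 0.15, adjusted p = 0.38), which became -0.58 (adjusted p = 0.0013) with 75th percentile scaling and, under quantile normalization, -0.86 (adjusted p = 9e-05). The Ctnnb1 probes gave 0.21 and 0.27 (adjusted p = 0.15 and 0.13), and both turned below 0 with those scalings. The Wnt5b probes gave 0.35 and -0.56 (adjusted p = 0.11 and 0.16).

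**Figure D4:**
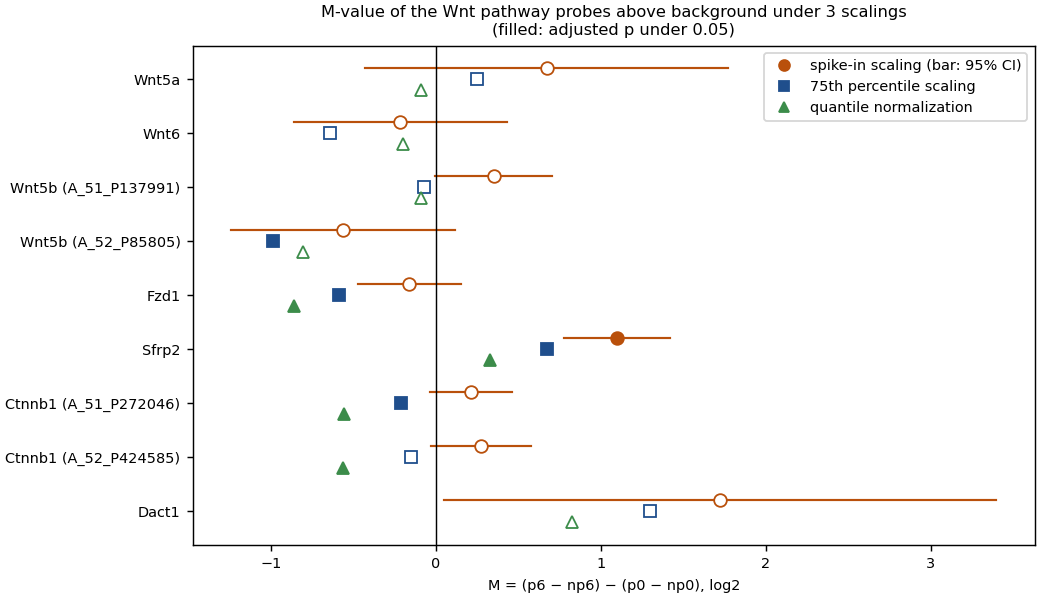
M-value on the log2 scale of the 9 probes above background under spike-in scaling (circles, with 95% confidence intervals), 75th percentile scaling (squares) and quantile normalization (triangles), 12 arrays. Sfrp2 is the only probe with filled symbols right of 0 under all 3 scalings (1.10, 0.67 and 0.33), and the Ctnnb1 probes cross from right to left of 0.

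By the likeness of the profile over the 12 arrays, the probe closest to Sfrp2 was one of Klhl17 (Pearson r = 0.9994), followed by Gpc6 and Eps15l1 (both r = 0.9992), among 16582 probes with a symbol. For the Wnt5b probe A_52_P85805, the one with the lowest M-value, the closest were Asb7 (r = 0.897), Nfkbid (r = 0.891) and Lyzl6 (r = 0.868) among 16581. All points share the 4 groups and the same arrays, so an r near 1 says mainly that the group means have a like order.

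Around the members, a list of 123 Wnt pathway genes in 11 roles had 118 genes on the array, and 126 of their 176 probes (88 genes) were above background in a group. Of the 117 such probes that were not members, 67 were called higher and 25 lower at 6 h in the polysomal fraction, and 46 higher and 34 lower in the non-polysomal fraction. Of all 25025 probes above background in a group, 56.7% were higher and 18.6% lower in the polysomal fraction and 32.7% and 30.9% in the non-polysomal one, and the counts by role below are to be read against these shares. The M-value of the 117 probes was higher for 66 and lower for 7, with a median of 0.54 beside 0.48 over all those probes, of which 47.1% were higher and 6.27% lower. With 75th percentile scaling 31 M-values were higher and 25 lower.

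The counts by role below leave the members out. Ligands other than the members moved in both directions. Of their 7 probes above background 6 were called higher and 1 lower in the polysomal fraction at 6 h, and 4 higher and 1 lower with 75th percentile scaling. Wnt2 had the largest change, from a mean log2 signal of 4.23 in p0 to 8.97 in p6 (4.74, SE 0.15) and from 3.85 in np0 to 7.86 in np6 (4.01). Wnt11 rose by 1.44 in the polysomal fraction and had an M-value of 1.09 (limma adjusted p = 0.00056). Wnt9a fell by 1.61 in the non-polysomal and by 0.61 in the polysomal fraction. Of the proteins that let cells secrete Wnt ligands, Porcn rose by 1.27 in polysomes, and Wls fell by 0.59 in the non-polysomal fraction.

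Among receptors, 7 of 16 probes were higher and 3 lower in polysomes at 6 h (5 and 5 with 75th percentile scaling), and Fzd9 rose by 2.54 there and by 1.68 in the non-polysomal fraction. Fzd8 fell by 0.70 in the non-polysomal fraction. Of the 7 probes of extracellular inhibitors 4 were higher and 2 lower in polysomes (2 and 2 with 75th percentile scaling). Dkk3, listed in this role, had an M-value of 1.31 past the test, with 2 of its 3 np6 arrays well above background. Notum, which inactivates Wnt ligands, was well above background on the 3 p6 arrays only. Under spike-in scaling it was at least 2.22-fold higher there than in p0 (limma adjusted p = 0.011). With 75th percentile scaling the rise of Notum was 0.94 on the log2 scale and did not pass the test (adjusted p = 0.077). Its M-value passed the test (2.04, adjusted p = 0.017) but not with 75th percentile scaling (adjusted p = 0.051). Of the 7 probes 1 had a lower M-value, that of Apcdd1 (-0.90, adjusted p = 0.00092), named after its value was seen. Of the R-spondin module, which tunes the number of Frizzled receptors on the surface, 3 probes were higher and 2 lower. Znrf3, a ligase that removes Frizzled receptors, rose by 2.10 in polysomes and by 0.87 in the non-polysomal fraction.

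Cytoplasmic transducers were higher in polysomes for 15 of 18 probes and lower for 0 (56.7% and 18.6% over all probes above background), and 11 were higher and 2 lower with 75th percentile scaling. Frat1, which binds GSK3, rose by 1.24 and 1.48 on its named probes, and Csnk1d, a casein kinase, rose by 1.15 on its named probe, which stood at -0.12 under quantile normalization. The other 3 Csnk1d probes rose by 1.11, 0.79 and 1.21 and stood at 0.46, 0.04 and 0.69 under it. The role of the destruction complex, which degrades β-catenin, had 18 probes of 10 genes. Of these 8 were lower and 6 higher in the polysomal fraction (12 and 4 with 75th percentile scaling). In the non-polysomal fraction 8 were lower and 2 higher. The role also listed Tnks and Tnks2, which are not parts of the complex itself. Their probes changed by -0.14 and -1.18 (Tnks) and by 0.56 and -0.66 (Tnks2) in polysomes. The difference between roles was not tested. Csnk1a1, a casein kinase of the complex, fell in the non-polysomal fraction on all 3 named probes (-1.38, -1.38 and -0.35) and had M-values of 1.38, 1.31 and 1.27. Of intracellular inhibitors 4 of 5 probes were higher and 0 lower in polysomes (3 and 1 with 75th percentile scaling). Ctnnbip1, an inhibitor of β-catenin, rose by 1.69 there.

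Nuclear effectors were split, with 7 of 15 probes higher and 7 lower in polysomes (6 and 9 with 75th percentile scaling). Tle3, a corepressor of TCF/LEF factors, rose by 2.13 in the polysomal fraction, against 0.20 (adjusted p = 0.09) in the non-polysomal one, and had an M-value of 1.93 (SE 0.12) under spike-in scaling, 1.51 with 75th percentile scaling and 1.43 under quantile normalization. All 8 probes of target genes above background, which stand for only 5 genes, were higher in polysomes at 6 h (56.7% over all probes above background). With 75th percentile scaling 7 of the 8 probes were. Sp5, the other listed target on the array, was not well above background on any array, nor was Axin2, a target among the members. The named probes of Myc, a growth regulator that is a target of many pathways, rose by 3.37 and 3.24 and had M-values of 2.19 and 1.08, and Ccn4 rose by 2.08. Of the noncanonical role 6 of 15 probes were higher and 2 lower in polysomes, but 4 higher and 7 lower with 75th percentile scaling. Vangl2, a planar polarity protein, fell by 2.21 in the non-polysomal fraction with no call in polysomes (-0.26, adjusted p = 0.44). Only 2 of the 3 np6 arrays were well above background for Vangl2, so the size of its fall is uncertain.

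**Figure D5:**
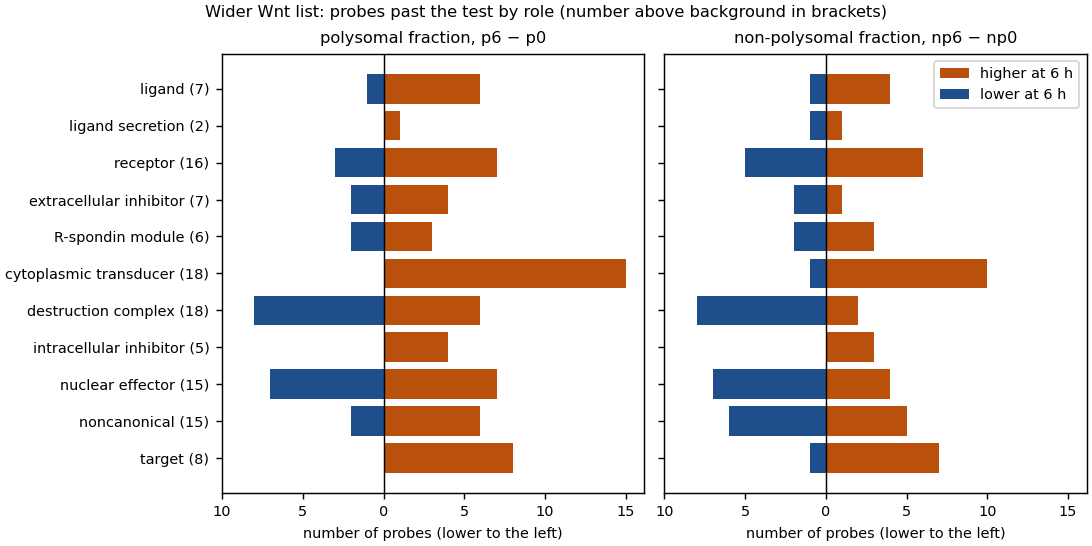
Number of probes of the Wnt list, without the members, called higher (right) or lower (left) at 6 h in the polysomal and the non-polysomal fraction, by role, with the number above background in brackets. Cytoplasmic transducers (15 of 18) and targets (8 of 8, from 5 genes) have no probe called lower in polysomes. The role of the destruction complex, which also lists Tnks and Tnks2, has 8 lower and 6 higher.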

How the data were processed

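Per the file headers, the authors deposited one-colour Agilent scanner files (Feature Extraction 10.7.1.1) with intensities per spot, background-subtracted but not normalized between arrays, and a table of log2 values per probe, which the authors made from median pixel intensities and set to spike-ins. RNA came from 12 pools, 3 biological replicates in each of 4 groups, and each slide held 1 replicate of every group.

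The deposited intensity (processed signal) was taken to log2, outlier spots were left out and the spots of a probe averaged. The mean over 10 spike-in transcripts, each the median of 32 spots, was subtracted from each array. Group means were fitted with limma 3.58.1 (R 4.3.3, lmFit and eBayes) on 41174 probes, with Benjamini-Hochberg adjustment over all of them per comparison. Probes were paired with genes through RefSeq accessions. Promoters were searched with Python 3.11.15. The scripts were tested on simulated data. The number of arrays limits the precision.

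The members and gene lists were chosen with earlier results of these data known. All member probes are named. Of the wider list, at most the 3 probes per role with the largest absolute M-value past the test were named, and profile likeness was given for the member probes of highest and lowest M-value among those above background on all arrays. A group with all its arrays below background gave a bound, the bright group's mean over a value for the dim group. On each dim array that value was the larger of the probe's own signal and the array's lowest signal well above background.

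Replicate numbers mark slides. Deviations from group means of arrays of the same number correlated between -0.10 and 0.42 (18 pairs, median 0.07), so the main fit had no block. The alternatives were 75th percentile scaling, quantile normalization, a line fitted to each array's spike-ins, the authors' values, normexp with an offset of 50, a filter on dim probes, outlier spots kept, a slide block, a variance trend and leaving out arrays and slides. The normexp setting as planned was not run: no mean signal was found in the files, and its fit on median signals failed on 3 arrays. A normexp fit without spots of non-uniform background was added after seeing the data. The q-PCR and Western blot results were not analysed here.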

Additional observations from a re-analysis of the deposited data

Results flagged for a closer look

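The response over 6 h differed between the fractions for 2 probes by the test of the difference itself, the M-value. For Sfrp2 it was 1.10 on the log2 scale (limma adjusted p = 0.00027), with a rise of 0.76 in the polysomal fraction and a fall of 0.34 in the non-polysomal one. For the Sfrp1 probe A_52_P564706 it was 0.50 (adjusted p = 0.037), but this probe was not well above background on any array, and with 75th percentile scaling the M-value was 0.07 (adjusted p = 0.85) and with quantile normalization 0.01 (adjusted p = 0.9). Spike-in scaling added 0.50 to every M-value. With 75th percentile scaling that of Sfrp2 was 0.67 (adjusted p = 0.00089).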

How the results depend on the processing

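Over 24 alternatives, the changes of Dact1, Wnt5a and Wnt6 in the polysomal fraction, the M-value of Sfrp2 and the difference between pools at both times for Ctnnb1, Sfrp2, Fzd1 and Wnt5a kept their direction and passed the test. The sizes for dim genes differed between settings: Wnt6 in polysomes ranged from -3.16 to -0.77, Wnt5a from 1.38 to 3.12 and Dact1 from 2.47 to 4.49. Non-polysomal changes of Wnt6 ranged from -2.67 to -0.62, of Wnt5a from 0.28 to 2.14 and of Dact1 from 0.67 to 2.92, and the difference of Wnt5a between pools at 0 h from 0.33 to 2.37. The cause of the differences between scalings was not tested.

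Of the 13 probes, the number with a higher M-value (2) was 1 with 75th percentile scaling, 1 under quantile normalization, 11 with a line fitted to the spike-ins, 7 with the authors' values, 8 with the added normexp fit, 1 without dim probes and 1 with a variance trend, and 1 to 3 when arrays or slides were left out. The number with a lower M-value (0) was 3 with 75th percentile scaling and 3 under quantile normalization. In the polysomal fraction the number higher (10) was 4 with 75th percentile scaling and 2 under quantile normalization, and 6 to 11 with arrays or slides left out, and the number lower (2) was 5 with quantile normalization, 1 with the straight line, 1 with normexp and 1 to 2 with arrays or slides left out. In the non-polysomal fraction the number lower (2) was 1 to 2 with arrays or slides left out. Between pools with 75th percentile scaling, the number lower was 3 at 0 h and 4 at 6 h, 3 of them each time never above background. Under quantile normalization the number lower was 1 at 6 h. The number higher at 6 h (10) was 6 with 75th percentile scaling. The replicate block (slide) gave 2 higher M-values, 11 higher in polysomes and 11 higher between pools at 6 h, the addition being the Sfrp1 probe A_51_P352296 (adjusted p = 0.041 and 0.047), and changed no other call.

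These values turned in direction. With 75th percentile scaling the M-value was -0.074 for Wnt5b A_51_P137991 and -0.21 and -0.15 for Ctnnb1, the polysomal change was -0.074 for that Wnt5b probe and -0.067 and -0.14 for Ctnnb1, the non-polysomal change of the Wnt5b probe was -0.00026, and the difference between pools was -0.52 for Wnt5b A_52_P85805 at 0 h and -0.34 for Wnt6 at 6 h. With quantile normalization the M-value was -0.088 for Wnt5a, -0.089 for Wnt5b A_51_P137991 and -0.56 for both Ctnnb1 probes, the polysomal change was -0.13 for Sfrp2, -0.26 for Fzd1 and -0.48 and -0.63 for Ctnnb1, the non-polysomal change of Ctnnb1 A_52_P424585 was -0.070, and the difference at 0 h of Wnt5b A_52_P85805 was -0.29. With the straight line the M-value was 0.79 for Wnt6, 0.29 for Wnt5b A_52_P85805 and 0.060 for Fzd1, the polysomal change of that Wnt5b probe was 0.074 and its difference at 6 h 0.57, and the non-polysomal change was -0.11 for Wnt5b A_51_P137991 and -0.010 for Ctnnb1 A_52_P424585. With the authors' values the non-polysomal change of Wnt5b A_51_P137991 was -0.089 and the 6 h difference of A_52_P85805 0.027, and with normexp these were -0.052 and 0.12. With arrays or slides left out, the non-polysomal change of Wnt5b A_51_P137991 ranged from -0.11 to 0.17 and of A_52_P85805 from -0.25 to 0.067, and the 6 h difference of the latter from -0.32 to 0.0016.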

Other observations

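A few other genes of the Wnt list moved farther than most members and were picked after their values were seen. Rspo2 and Rspo3, secreted proteins that strengthen Wnt signals, fell in both pools. Rspo2 went from a mean log2 signal of 8.37 in p0 to 4.61 in p6 (-3.76) and was at least 13.1-fold lower in np6 than in np0 (mean 6.70), a bound because 0 of the 3 np6 arrays were well above background. Rspo3 went from 6.86 to 4.16 in the polysomal fraction (-2.70, 2 of 3 p6 arrays above background) and from 6.46 to 3.38 in the non-polysomal one (-3.09). The probes of Fzd5, a Frizzled receptor, disagreed: A_52_P224125 changed by -2.01 in the polysomal and -2.34 in the non-polysomal fraction, and A_51_P166456 by 0.0022 (adjusted p = 0.99) and 0.21 (adjusted p = 0.47).

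Id2, an inhibitor of basic helix-loop-helix factors and a listed target, rose on the probe A_51_P219074 by 3.75 in the polysomal and 3.20 in the non-polysomal fraction, so that its M-value of 0.55 lay near the median of all probes. Dkk2, a secreted inhibitor, had a mean of 5.57 in p0 and 2.67 in p6, where only 1 of the 3 arrays was well above background, so that the size of its fall is not known.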
